A study of Mus musculus with 8 samples.

Results

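The collagen and laminin genes were taken as the protein-coding mouse genes whose symbols name a collagen alpha chain (Col1a1, Col27a1 and the like) or a laminin alpha, beta or gamma chain (Lama, Lamb or Lamc with a number), with a mean above 0 over all samples. The rule found 55 of the 55359 listed genes, 44 collagen and 11 laminin genes. Total RNA was sequenced from bone marrow-derived macrophages (Mϕ) of adult wildtype C57BL/6 mice of both sexes in 4 groups of 2 samples. All groups were differentiated with M-CSF and GM-CSF (20 ng/mL each), and all were enriched for CD45+ leukocytes with magnetic beads before RNA isolation. Naïve Mϕ were left unstimulated (Ctrl) or were given LPS (100 ng/mL) with IFNγ (100 U/mL) for 6 h (LPS). Efferocytic Mϕ had been cultured for 16 h with apoptotic NIH-3T3 CA (caspase activatable) fibroblasts, which the labels call NIH-3T3, at 5 fibroblasts per Mϕ, in 10 nM of the dimerizer that activates the caspase-8 domain of these cells, and were washed and left unstimulated (Eff) or given LPS/IFNγ for 6 h (LPSEff). The NIH-3T3 CA cells, derived from the mouse fibroblast line NIH-3T3, were a single clone (clone D10), and the labels do not say whether naïve Mϕ received the dimerizer or whether the samples of a group came from separate mice or cultures, so that the p-values below measure only the spread between these samples, which may be technical.

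Collagens are built from 3 alpha chains wound into a triple helix, and laminins from an alpha, a beta and a gamma chain joined in a cross. Fibrillar collagens such as types I, III and V form the tensile fibres of connective tissue, type VI forms beaded filaments around cells, and type IV forms the network of basement membranes together with laminins. Fibroblasts are the main source of the fibrillar collagens, whereas Mϕ are better known for taking up and degrading them.

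Values are normalized counts, which are reads per gene divided by a size factor for each sample. The reads behind them numbered 3481288 and 12020918 in Ctrl replicates 1 and 2, 6548938 and 9344411 in LPS, 7517814 and 9745287 in Eff, with 11267193 and 7472370 in LPSEff. In Ctrl replicate 1, the shallowest sample, 3 reads were worth 5.71 normalized counts. Of the 55 genes, 34 had a mean of at least 10 and were tested. The other 21 had means from 2.40 to 9.22 and no value above 20.6, and are given here by their values alone. Markers matched the label of the samples as macrophages. Lyz2, the lysozyme of myeloid cells, ranged from 54327 to 103980 normalized counts, and the 14 macrophage markers together held 116400 to 172020 normalized counts in every sample.

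The first question was which collagen and laminin genes were read in Mϕ that had met no fibroblasts. In the 4 naïve samples, 25 of the 55 genes (45.5%) had more than 3 reads in each sample, compared with 59.9% of the 20490 protein-coding genes with a mean above 0. None of the 55 stayed at 3 reads or fewer in each naïve sample, and the remaining 30 passed this limit in some naïve samples and not in others. The 25 were Lamc1, Lamb2, Lamb3, Lama1, Lama4 and Lama5 among the laminins, the fibrillar Col1a1, Col1a2, Col2a1, Col5a1, Col5a2, Col11a2 and Col27a1, the basement membrane chains Col4a1, Col4a2, Col4a3 and Col4a5, and Col6a1, Col7a1, Col12a1, Col15a1, Col16a1, Col18a1, Col20a1 and Col23a1. Of these 25, 17 had a naïve mean of 50% or more of their efferocytic mean, and 3 had 10 to under 50%. The other 5, Col1a1, Col1a2, Col4a1, Col6a1 and Col16a1, were under 10%, from 1.90% (Col4a1) to 5.57% (Col16a1). The number of 25 depended on the shallow Ctrl replicate 1, without which it was 38. It was 10 with at least 10 reads required in each sample, namely Lamc1, Lama5, Lamb2, Lamb3, Col4a2, Col5a1, Col11a2, Col18a1, Col23a1 and Col27a1, and 11 with at least 10 normalized counts, which added Col15a1.

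Lamc1, the gamma chain of most laminins, was the best covered member in naïve Mϕ. It had 575 and 688 normalized counts in Ctrl and 1212 and 1009 in LPS, compared with 853 and 821 in Eff and 1669 and 1640 in LPSEff. Col5a1, a chain of the type V collagen that regulates fibril diameter, had 74.3 and 215 in Ctrl, 410.0 and 305 in LPS, 255 and 349 in Eff, with 609 and 608 in LPSEff. Both genes were thus read at high levels without fibroblasts, with naïve means of 69.9% (Lamc1) and 55.2% (Col5a1) of the efferocytic means. Col23a1, a transmembrane collagen, had 45.7 and 72.3 in Ctrl, 71.1 and 51.8 in LPS, 51.7 and 38.8 in Eff, with 32.5 and 31.7 in LPSEff, so that its naïve mean was 156% of its efferocytic mean. Col18a1, the source of endostatin, ranged from 24.8 to 107 in naïve and from 60.5 to 166 in efferocytic samples. In the limma fit, none of these 4 genes passed the test for efferocytosis averaged over both stimulation states, in which adjusted p was 0.123 for Lamc1, 0.196 for Col5a1, 0.309 for Col23a1 and 0.453 for Col18a1 (Benjamini-Hochberg adjustment over all 16309 tested genes), whereas DESeq2 on recovered reads called Col5a1 (adjusted p = 0.0489). With same-numbered samples fitted as blocks in limma, Lamc1 (adjusted p = 0.0139), Col5a1 (0.0256) and Col18a1 (0.0380) were called, and Col23a1 was not.

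To compare levels between genes, normalized counts were divided by the kb of annotated exons. On this scale, the Ctrl means were 55.8 per kb for Lamc1, 16.6 for Col5a1, 9.97 for Col23a1 and 6.21 for Col18a1, the 4 highest of the 55 genes. The first 4 places were the same with the length of the canonical transcript only (79.6, 17.1, 10.1 and 7.85 per kb), although only Lamc1 stood clear of the next gene, and the Ctrl samples of Col5a1 overlapped with those of Col23a1, and those of Col23a1 with Col18a1. Lamb1, the usual beta partner of Lamc1, was at 0.536 per kb in Ctrl, and the type III collagen chain Col3a1 was at 0.410.

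**Figure D1:**
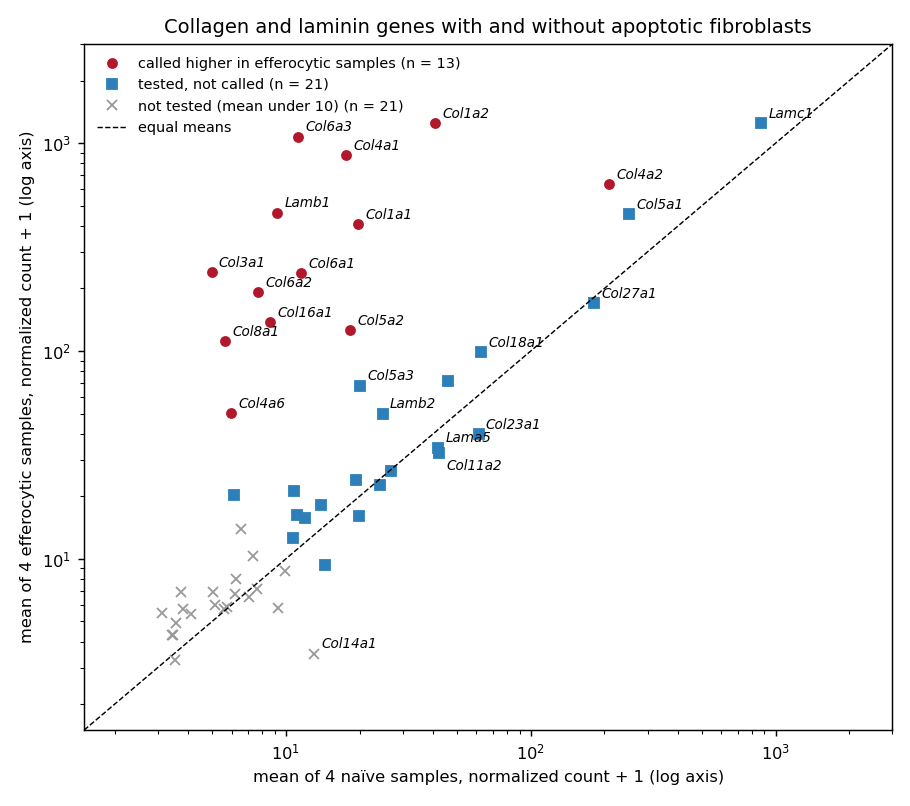
Mean normalized count + 1 of the 4 naïve samples (x axis, log) against that of the 4 efferocytic samples (y axis, log) for the 55 collagen and laminin genes, with 13 genes called higher in efferocytic samples as circles, 21 tested genes not called as squares and 21 genes not tested as crosses. The called genes lie above the dashed line of equal means, while Lamc1, Col27a1, Col23a1, Lama5 and Col11a2 lie close to it at naïve means from 40.9 to 871.

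The second question was how the family changed after co-culture with apoptotic fibroblasts. Without LPS/IFNγ, 7 of the 34 tested genes rose in efferocytic Mϕ (Eff vs Ctrl) and 0 fell, compared with 0.215% of all tested genes called higher and 0.0368% called lower. They were the fibrillar Col1a1, Col1a2 and Col3a1, the beaded filament chains Col6a1 and Col6a3, the basement membrane chain Col4a1, and Lamb1. Under LPS/IFNγ (LPSEff vs LPS), 10 rose and 0 fell, compared with 0.73% and 0.0429% of all tested genes. These 10 held all 7 of the genes called without LPS/IFNγ (100% of the 7 and 70% of the 10), together with Col4a6, Col8a1 and Col16a1. The Col4a6 call was lost under 10 of 16 alternatives, and the Col3a1 call in Eff vs Ctrl under 8 of 17. By edgeR on recovered reads, 5 genes were called in Eff vs Ctrl, with Col1a2 and Col3a1 missing the threshold (adjusted p = 0.0567 and 0.0535). The 2 contrasts share no sample, but the spread was estimated from all 8. With both stimulation states averaged, 13 genes rose and 0 fell (1.62% and 0.3% of all tested genes), the additional ones being Col4a2, Col5a2 and Col6a2. The median log2 fold change of the 34 tested genes was 0.91 without and 1.17 with LPS/IFNγ, compared with -0.01 and -0.003 over all tested genes.

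Col6a3, a chain of type VI collagen filaments, rose in both states, from few or no reads in naïve samples. Its normalized counts were 0 and 8.10 in Ctrl, 15.5 and 17.3 in LPS, 605 and 1020 in Eff, with 1514 and 1162 in LPSEff, with log2 fold changes of 8.03 ± 0.84 (SE, adjusted p = 0.0183) without and 6.26 ± 0.84 (adjusted p = 0.0257) with LPS/IFNγ. Every efferocytic sample was far above every naïve sample, but the value without LPS/IFNγ was 6.43 without Ctrl replicate 1 and 9.62 without Ctrl replicate 2, and the gene was called in both. Col1a2, a chain of type I collagen, had 7.62 and 39.9 in Ctrl, 28.5 and 83.3 in LPS, 582 and 1107 in Eff, with 1913 and 1369 in LPSEff. Its partner Col1a1 followed with 7.62 and 12.1 in Ctrl, 16.8 and 38.6 in LPS, 193 and 284 in Eff, with 606 and 537 in LPSEff. For both type I chains the groups with and without fibroblasts did not overlap, and their log2 fold changes without LPS/IFNγ were 5.42 ± 0.74 (Col1a2, adjusted p = 0.0402) and 4.47 ± 0.42 (Col1a1, adjusted p = 0.0125). For Col1a2 this was 4.30 without Ctrl replicate 1 (adjusted p = 0.179) and 6.54 without Ctrl replicate 2 (adjusted p = 0.0457), and its call was lost under 8 of 17 alternatives.

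Col3a1, the type III chain found beside type I in fibres, was at most 6.47 in naïve samples and had 96.4 and 263 in Eff and 257 and 338 in LPSEff. Lamb1 was at most 14.2 in naïve samples and had 260.3 and 485 in Eff and 588 and 515 in LPSEff, a log2 fold change of 5.72 ± 0.40 without and 5.63 ± 0.40 with LPS/IFNγ (adjusted p = 0.0060 and 0.0034). Both chains had at most 3 reads in Ctrl replicate 1, and every efferocytic sample was above every naïve sample. Within type VI, Col6a1 (112 and 270.3 in Eff) passed the test in both states, whereas Col6a2 (79.7 and 224 in Eff) passed in the limma fit in the average alone (log2 fold change 5.09 ± 0.61, adjusted p = 0.0074), and in both single states by DESeq2 on recovered reads. Smaller numbers of reads lay behind Col16a1, which associates with the surface of fibrils (66.6 and 128 in Eff, 217 and 136 in LPSEff), the short-chain Col8a1 (27.2 and 97.4, 129 and 188) and Col4a6 (31.5 and 50.1, 60.2 and 54.6), and each of them was at most 11.4 in every naïve sample.

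**Figure D2:**
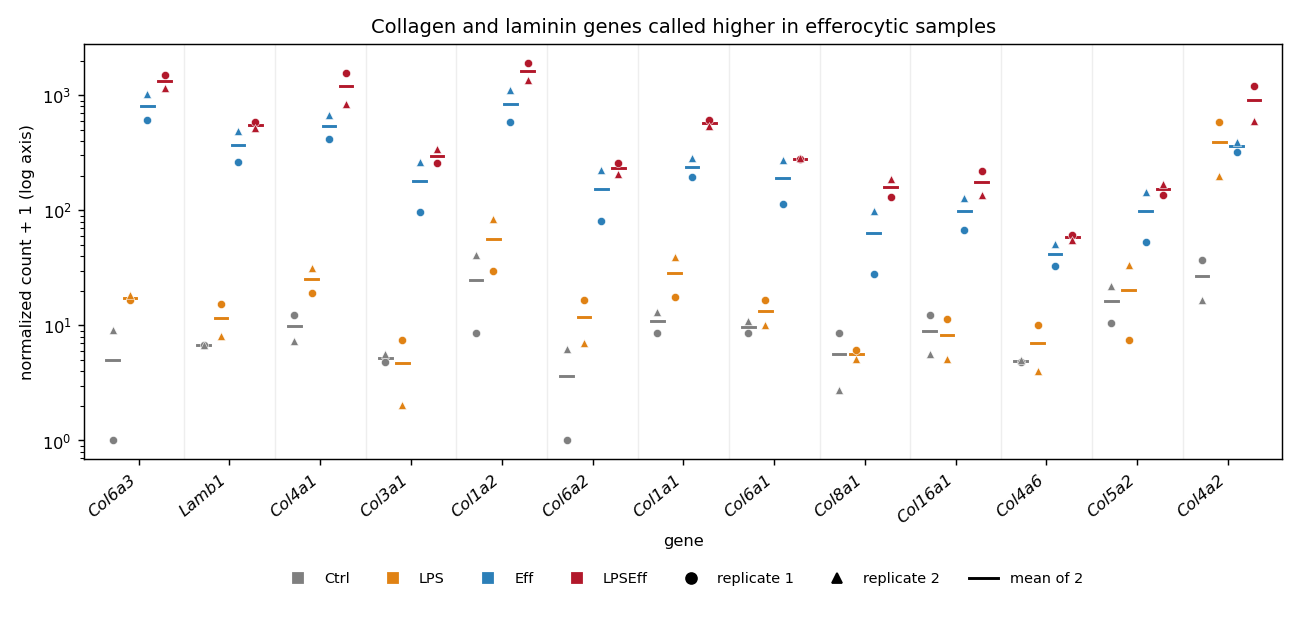
Normalized count + 1 (y axis, log) in each of the 8 samples for the 13 genes called higher in efferocytic samples over both stimulation states, ordered by log2 fold change, with circles and triangles for replicates 1 and 2 and short lines for the mean of 2. Apart from Col4a2, whose LPS samples (585 and 197) reach the level of Eff (323 and 394), each gene has all of its efferocytic samples above all of its naïve samples. The genes were picked by their call in these same samples, which favours such separation, and the share of all genes that separate was not counted.

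Single samples weighed on these counts. In Eff vs Ctrl the number of genes called was 0 without Eff replicate 2, 3 without Ctrl replicate 1, 3 without LPSEff replicate 1 or 2, which enter only through the spread, and 4 without Ctrl replicate 2. In LPSEff vs LPS it was 0 without LPSEff replicate 1, 2 without LPSEff replicate 2 and 4 without LPS replicate 2, whereas the average over both states gave between 9 and 14 genes. With 2 samples a group, an exact permutation test cannot go below p = 0.333.

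Fibroblast markers outside the family were read beside these genes. Of 26 such markers (Vim, S100a4, Cav1 and Ccn2, which other cells also express, were set apart), 17 were tested, and 2, 4 and 7 rose in Eff vs Ctrl, LPSEff vs LPS and the average (0.215%, 0.73% and 1.62% of all tested genes called higher), with 0 falling. Their summed level was 293 and 288 normalized counts in Ctrl, 938 and 829 in LPS, 921 and 1774 in Eff, with 2774 and 2804 in LPSEff, and their most abundant gene was Fbln2. Prrx1, a transcription factor of mesenchymal cells, had at most 5.08 normalized counts in naïve samples and 31.5 and 143 in Eff and 227 and 355 in LPSEff. Pdgfra, a growth factor receptor of fibroblasts, had between 13.3 and 24.8 in naïve samples, 112 and 258 in Eff and 412 and 367 in LPSEff. Of the 26, 5 markers had at most 3 reads in each naïve sample, and Tcf21 had 0 reads in both Ctrl samples. The summed collagen and laminin genes were 1282 and 1486 in Ctrl, 3368 and 2722 in LPS, 4582 and 6892 in Eff, with 12154 and 9735 in LPSEff. Macrophage markers were called in neither direction in the 3 efferocytosis contrasts (0 of 14), including Lyz2 and Cd14, the 2 most abundant per kb. Transcripts of fibroblasts, engulfed or left among the Mϕ, and transcripts made by Mϕ cannot be told apart in these samples. Nor can more RNA per cell and more cells of a type.

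**Figure D3:**
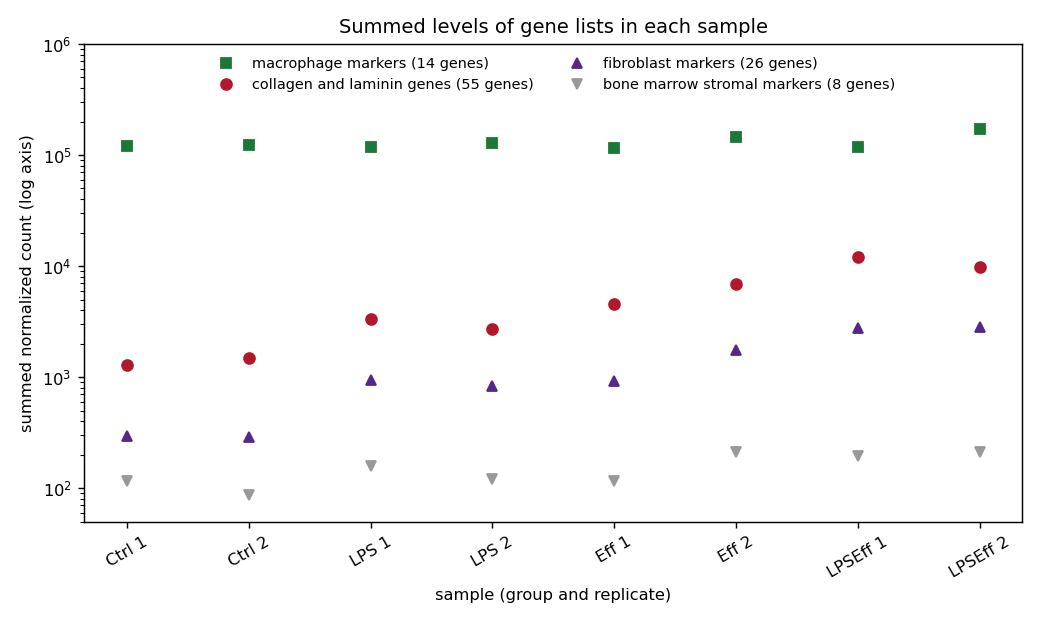
Summed normalized counts (y axis, log) of 14 macrophage markers, the 55 collagen and laminin genes, 26 fibroblast markers and 8 bone marrow stromal markers in each of the 8 samples (x axis). The collagen and laminin sum runs from 1282 in Ctrl replicate 1 to 12154 in LPSEff replicate 1, while the macrophage markers stay between 116400 and 172020.

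The ratios between chains that form a molecule together differed between naïve and efferocytic samples for some pairs and overlapped for others. Col4a1 and Col4a2, which make the common type IV network, are neighbours on chromosome 8 (GRCm39, chr8:11248423-11362826 on the minus strand and chr8:11362471-11499287 on the plus strand), and their canonical transcripts overlap by 318 bases at their starts. Col4a1 had 11.4 and 6.36 normalized counts in Ctrl, 18.1 and 30.5 in LPS, 413 and 675 in Eff, with 1558 and 845 in LPSEff. Col4a2 had 36.2 and 15.6 in Ctrl, 585 and 197 in LPS, 323 and 394 in Eff, with 1212 and 600.3 in LPSEff. The ratio of Col4a2 to Col4a1 was 3.17 and 2.46 in Ctrl, 32.3 and 6.47 in LPS, 0.783 and 0.583 in Eff, with 0.778 and 0.710 in LPSEff. Naïve samples thus held more Col4a2 than Col4a1, and efferocytic samples held less. The ratio of Col4a5 to Col4a6 was also higher in every naïve sample (2.67 to 20.0) than in the efferocytic ones (1.08 to 1.82). Its naïve values rest on few reads of Col4a6, 2 and 7 in Ctrl with 7 and 3 in LPS. For the type I chains the groups overlapped, since Col1a1 over Col1a2 was 1.00 and 0.304 in Ctrl, 0.591 and 0.463 in LPS, and 0.257 to 0.392 in efferocytic samples, an overlap that rests on Ctrl replicate 2. In Ctrl replicate 1 each type I chain had 4 reads. In LPS vs Ctrl, Col4a2 rose by 3.78 ± 0.57 on the log2 scale (adjusted p = 0.0026; 2.99 without LPS replicate 1 and 4.56 without LPS replicate 2, called in both), whereas the log2 fold change of Col4a1 was 1.36 ± 0.43 and did not pass the limma test (adjusted p = 0.0544; 0.0188 by DESeq2 on recovered reads). Of the other type IV chains only Col4a6 passed a test, and Col4a3 and Col4a4 stayed at or below 25.3 normalized counts in all samples.

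Among laminin chains, the ratio of Lamc1 differed with one beta chain and overlapped with the other. The ratio of Lamc1 to Lamb1 was 101 and 119 in Ctrl, 85.2 and 142 in LPS, 3.28 and 1.69 in Eff, with 2.84 and 3.18 in LPSEff. Its naïve values rest on few reads of Lamb1, 3 and 10 in Ctrl with 11 and 7 in LPS. Per kb of exons, Eff held 73.9 for Lamc1 and 34.7 for Lamb1, whereas Ctrl held 55.8 and 0.536. Lamb2, a beta chain of other laminins, had 19.0 and 23.1 in Ctrl, 29.7 and 23.4 in LPS, 35.9 and 35.3 in Eff, with 53.0 and 71.1 in LPSEff. It was called in no contrast of the limma fit (adjusted p = 0.108 in the average). With same-numbered samples as blocks, Lamb2 was called in LPSEff vs LPS (adjusted p = 0.0484) and in the average (0.0206). The ratio of Lamc1 to Lamb2 was 29.8 to 43.2 in naïve and 23.1 to 31.5 in efferocytic samples, which overlap. Per kb of exons, Lama5 was the highest alpha chain in every group, although Lama4 was above it in LPS per kb of the canonical transcript (3.44 and 3.16), and its normalized counts were 43.8 and 47.4 in Ctrl, 29.7 and 42.7 in LPS, 40.3 and 42.3 in Eff, with 30.1 and 20.3 in LPSEff. None of the alpha chains was called in an efferocytosis contrast. The adhesive part of a laminin sits on its alpha chain, and the summed alpha chains ranged from 64.7 to 113 normalized counts over the 8 samples, and the summed beta chains from 41.1 to 665.

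**Figure D4:**
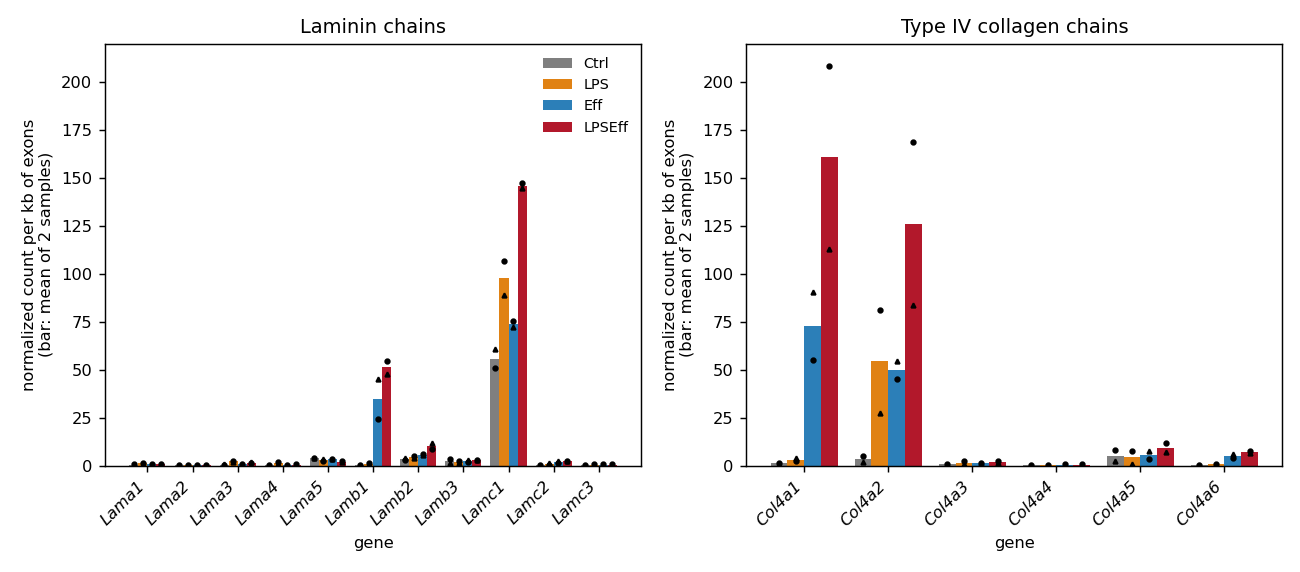
Normalized counts per kb of exons (y axis, from 0) for the 11 laminin chains (left) and the 6 type IV collagen chains (right), with bars for the mean of 2 samples and dots for the samples of each group. Lamc1 is high in every group (55.8 to 146 per kb), Lamb1 and Col4a1 are high in Eff and LPSEff, and Col4a2 is high in LPS as well (54.4 per kb).

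The third question was how LPS/IFNγ changed the family in naïve and in efferocytic Mϕ. In naïve Mϕ (LPS vs Ctrl), 6 of 34 tested genes rose, namely Lamc1, Lama3, Col4a2, Col5a1, Col11a2 and Col27a1, and 0 fell. This is 17.6% of the tested genes, beside 12.4% of all tested genes called higher and 11.6% called lower. In efferocytic Mϕ (LPSEff vs Eff), Lamc1, Col5a3 and Col27a1 rose and 0 fell (8.82% of the tested members), beside 10.7% and 8.95% of all tested genes. DESeq2 on recovered reads called 9 of 34 members and 2237 of 16309 genes higher in LPS vs Ctrl, and 7 of 30 members and 2025 of 15360 genes in LPSEff vs Eff. Of the 6, DESeq2 did not call Lama3 (adjusted p = 0.0523), and edgeR did not call Col5a1 (adjusted p = 0.0579), whose log2 fold change of 1.47 was 0.71 without Ctrl replicate 1 and 2.24 without Ctrl replicate 2. In the limma fit, Lamc1 and Col27a1 were called in both contrasts (33.3% of the 6 and 66.7% of the 3). LPS vs Ctrl and Eff vs Ctrl share the Ctrl samples. The median log2 fold change of the tested members was 0.74 in LPS vs Ctrl and 0.77 in LPSEff vs Eff, beside -0.01 and 0.01 over all tested genes.

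These directions depended in part on scaling. With samples scaled to equal totals, the median of all tested genes moved to -0.405 in LPS vs Ctrl and -0.435 in LPSEff vs Eff, the members' medians were 0.38 and 0.33, and the calls over all genes went from 2015 higher and 1895 lower to 1420 and 4315 in naïve Mϕ, and from 1753 and 1460 to 1216 and 4362 in efferocytic Mϕ. Col4a2, Col27a1 and Lama3 were then called in naïve Mϕ. In efferocytic Mϕ, Col5a3 and Col27a1 were called higher and Lama5 lower (log2 fold change -1.15). In LPS vs Ctrl, 3 genes were called without Ctrl replicate 1 and 3 without LPS replicate 2, and in LPSEff vs Eff, 1 gene was called without Eff replicate 2.

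Col27a1, a fibrillar collagen of cartilage, rose in both contrasts. It had 43.8 and 36.4 normalized counts in Ctrl, 251 and 393 in LPS, 49.9 and 60.7 in Eff, with 292 and 272 in LPSEff. Its log2 fold changes were 2.94 ± 0.28 in naïve (adjusted p = 0.0003) and 2.33 ± 0.28 in efferocytic Mϕ (adjusted p = 0.0009), and it passed the test under all 17 alternatives in each contrast. Efferocytosis did not move it past the test (log2 fold change 0.15 ± 0.19 in the average, adjusted p = 0.806). Lamc1 rose by 0.81 ± 0.18 in naïve (adjusted p = 0.0137) and by 0.98 ± 0.18 in efferocytic Mϕ (adjusted p = 0.0070), with all stimulated samples (1009 to 1669) above all unstimulated ones (575 to 853). The Lamc1 calls were lost under 4 and 2 of 17 alternatives, equal totals among them, with log2 fold changes down to 0.41 and 0.53. Col5a3, a further type V chain, had 5.71 and 6.94 in Ctrl, 12.9 and 50.8 in LPS, 16.6 and 12.7 in Eff, with 117 and 122 in LPSEff. Its rise was called in efferocytic Mϕ (2.95 ± 0.59, adjusted p = 0.0099) and lay at the threshold in naïve Mϕ (1.88 ± 0.59, adjusted p = 0.0507 by limma and 0.0296 by edgeR on recovered reads), where LPS replicate 2 was well above LPS replicate 1. Col11a2, a chain of type XI collagen, had 28.6 and 16.8 in Ctrl and 69.8 and 49.8 in LPS, and Lama3, an alpha chain of epithelial laminin, had 5.71 and 9.83 in Ctrl and 33.6 and 26.4 in LPS.

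The difference between the LPS/IFNγ effects of efferocytic and naïve Mϕ was called for 0.0% of all tested genes and for 0 of the 34 members. At an unadjusted p under 0.05 there were 311 genes and 1 member, Col4a2, with a difference of -2.52 ± 0.81 on the log2 scale (adjusted p = 0.9999), and edgeR and DESeq2 on recovered reads called 0 genes as well, with 369 and 244 at an unadjusted p under 0.05. The larger number of members called in naïve than in efferocytic Mϕ is therefore not a tested difference.

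**Figure D5:**
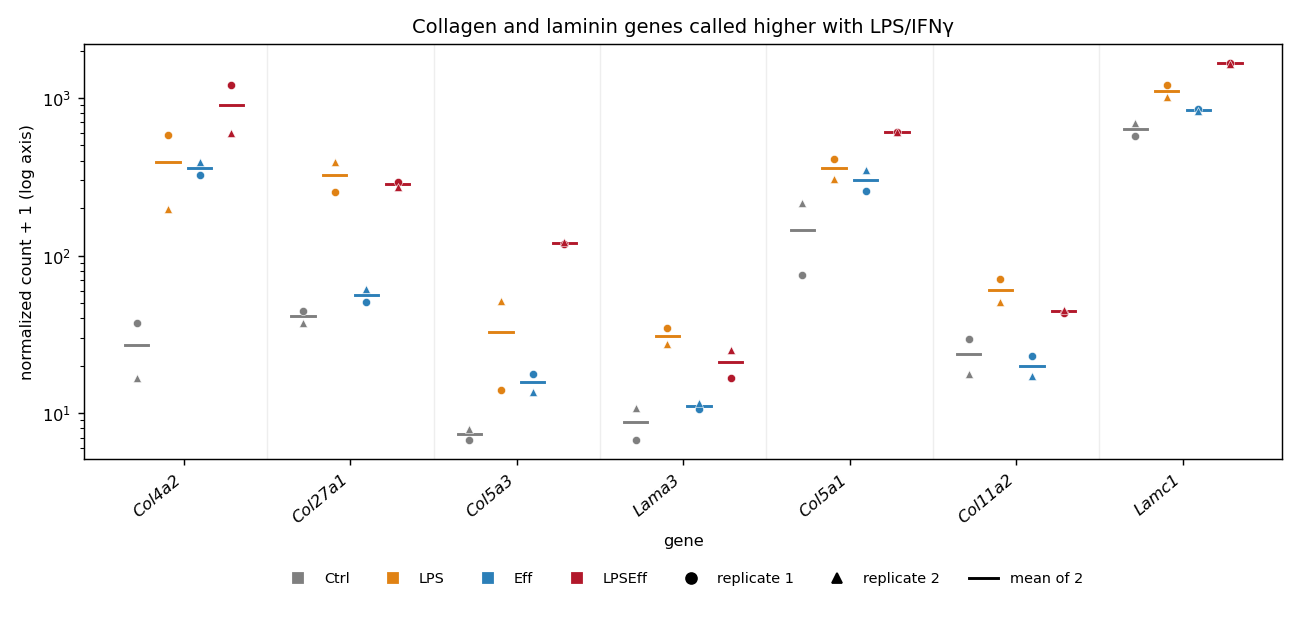
Normalized count + 1 (y axis, log) in each of the 8 samples for the 7 genes called higher in LPS vs Ctrl or LPSEff vs Eff, ordered by the log2 fold change in naïve Mϕ, with circles and triangles for replicates 1 and 2 and short lines for the mean of 2. Col27a1 separates stimulated (251 to 393) from unstimulated samples (36.4 to 60.7) whether or not fibroblasts were added.

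The sequences before the starts of Lamc1 and Col27a1 are shown because both genes were called in both LPS/IFNγ contrasts, a choice made after their values were known. They were read 5′ to 3′ from the GRCm39 genome ahead of the canonical GENCODE start, where no exon is annotated, and capitals mark matches to the motifs below. The Lamc1 stretch is chr1:153208775-153209024, 250 bases on the minus strand up to the start. The Col27a1 stretch is chr4:63133422-63133648, 227 bases on the plus strand ending 23 bases before the start at 63133672, inside the annotated gene, whose longest extent begins further upstream.
Lamc1: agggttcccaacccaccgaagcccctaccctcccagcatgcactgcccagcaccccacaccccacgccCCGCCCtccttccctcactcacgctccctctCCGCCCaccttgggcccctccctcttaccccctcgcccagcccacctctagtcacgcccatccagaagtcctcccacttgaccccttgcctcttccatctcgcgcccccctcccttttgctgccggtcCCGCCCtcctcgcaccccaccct
Col27a1: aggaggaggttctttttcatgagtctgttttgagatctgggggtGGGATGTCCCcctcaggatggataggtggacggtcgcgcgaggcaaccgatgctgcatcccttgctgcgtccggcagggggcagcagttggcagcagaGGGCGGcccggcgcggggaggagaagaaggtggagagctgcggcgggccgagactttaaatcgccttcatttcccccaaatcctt
All capitals in Lamc1 are GC boxes (GGGCGG, read on the other strand). In Col27a1, the first run in capitals matches the NF-κB consensus when read on the other strand, and the second is a GC box on the strand shown. The same motifs were searched on both strands in the 300 bases from 250 before to 50 after the start of 21770 protein-coding genes, where a GC box was found in 42.5% of all promoters and in 29 of the 55 members (52.7%). A TATA box (TATAAA) was found in 13.2% of promoters and 9 members, a CCAAT box in 39.9% and 19 members, and the AP-1 motif TGANTCA in 7.14% and 1 member, Col6a1. The NF-κB consensus was found in 4.87% of promoters and in 6 members (Col27a1, Col26a1, Col6a4, Col9a2, Lama1 and Lamb3), the GAS motif TTCNNNGAA in 8.81% and 5 members, and the ISRE motif TTTCNNTTTC in 3.84% and 1 member, Col23a1. A match of letters is a description of the window and says nothing of whether a factor was bound.

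Among the 21 members with too few reads to be tested, Col14a1, which associates with type I fibrils, had 5.71 and 10.4 normalized counts in Ctrl, 11.6 and 20.3 in LPS, 1.75 and 0 in Eff, with 3.17 and 5.08 in LPSEff. It was higher in every naïve than in every efferocytic sample, as was Col9a2, a chain of cartilage type IX collagen (5.71 to 10.3 in naïve and 4.38 to 5.08 in efferocytic samples), while Col17a1, a transmembrane collagen, was lower in every naïve sample (at most 8.12) than in every efferocytic sample (at least 8.47). For Col9a2 the closest values were 3 reads in Ctrl replicate 1 (5.71) and 4 reads in LPSEff replicate 2 (5.08). These 3 genes were singled out after their values were seen, at values of few reads. The share of all genes that separate in this way was not counted. The others, among them the cartilage chains Col9a1, Col9a3, Col10a1 and Col11a1 and the muscle laminin chain Lama2, stayed low in all samples, within the range given above. Replicates differed for some low members. Col2a1, the main cartilage collagen, had 22.8 and 6.94 in Ctrl, 67.3 and 6.09 in LPS, 35.1 and 4.94 in Eff, with 53.8 and 7.61 in LPSEff, so that replicate 1 exceeded replicate 2 in all 4 groups. Col4a5 had 76.2 and 22.6 in Ctrl and 73.7 and 8.12 in LPS, but 34.2 and 72.7 in Eff and 109 and 67.3 in LPSEff.

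Genes whose products modify, bind or accompany collagens and laminins were read beside the family. Of 32 modifying enzymes and chaperones, 28 were tested, and 0 passed in Eff vs Ctrl, 4 rose in LPSEff vs LPS and 6 rose in the average, with 0 falling, beside 0.215%, 0.73% and 1.62% of all tested genes called higher. The 4 were Fkbp10 and Serpinh1, chaperones of the collagen triple helix in the endoplasmic reticulum, P3h4, which takes part in collagen hydroxylation, and Pcolce, an enhancer of propeptide removal. Serpinh1 had 3.81 and 27.2 normalized counts in Ctrl, 9.05 and 24.4 in LPS, 165 and 452 in Eff, with 474 and 445 in LPSEff (log2 fold change 4.85 ± 0.83 under LPS/IFNγ, adjusted p = 0.0471). The 2 most abundant of the list per kb of exons, P4hb and Ppib, which serve many secreted proteins, had 5812 to 8723 and 1794 to 2236 normalized counts and were called in no contrast. With LPS/IFNγ in naïve Mϕ, 6 of the 28 rose and 2 fell, beside 12.4% and 11.6% of all tested genes. The crosslinking enzyme Lox went from 367 and 165 in Ctrl to 3620 and 1335 in LPS (log2 fold change 3.15 ± 0.64, adjusted p = 0.0096), and Plod2, a lysyl hydroxylase, from 24.8 and 34.7 to 173 and 117 (2.24 ± 0.37, adjusted p = 0.0037). Both also rose in efferocytic Mϕ, and both were picked for the text after their values were seen, as were Agrn, Lair1, Pdgfrb, Cdh11 and Cav1 below.

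Of 20 receptors, 16 were tested, and 0, 1 and 2 rose in Eff vs Ctrl, LPSEff vs LPS and the average, with 0 falling, beside the same 0.215%, 0.73% and 1.62% of all tested genes. They were Ddr2, a collagen-binding receptor kinase of mesenchymal cells (at most 8.12 normalized counts in naïve samples, 35.9 and 160 in Eff, 167 and 217 in LPSEff), and in the average Mrc2, a collagen uptake receptor. The most abundant receptors, Itgb1 and Cd44, were called in no efferocytosis contrast. Itgb1, the integrin beta chain shared by most collagen and laminin receptors, rose with LPS/IFNγ by 1.00 ± 0.28 in naïve Mϕ (adjusted p = 0.0338) and by 1.05 ± 0.28 in efferocytic Mϕ (adjusted p = 0.0324). Lair1, an inhibitory collagen receptor of leukocytes, fell with LPS/IFNγ from 545 and 599 to 195 and 275 in naïve Mϕ and from 392 and 433 to 127 and 190.4 in efferocytic Mϕ.

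Of 19 other matrix partners, 14 were tested, and 5, 6 and 9 rose in Eff vs Ctrl, LPSEff vs LPS and the average, with 0 falling, again beside 0.215%, 0.73% and 1.62% of all tested genes. Nid1, which links laminin to type IV collagen, had 30.5 and 34.7 in Ctrl, 37.5 and 78.2 in LPS, 167 and 301 in Eff, with 1176 and 893 in LPSEff. Hspg2, the basement membrane proteoglycan perlecan, had 20.9 and 20.8 in Ctrl, 32.3 and 30.5 in LPS, 262 and 363 in Eff, with 827 and 440.4 in LPSEff. Both rose in both states, with log2 fold changes of 2.75 ± 0.40 and 4.22 ± 0.40 for Nid1 and of 3.82 ± 0.33 and 4.22 ± 0.33 for Hspg2 (adjusted p = 0.0436, 0.0095, 0.0118 and 0.0034). Bgn, Fbn1, Fbln2 and Dcn, of which the last 3 are also on the fibroblast list, were among the others that rose, as was Sparc, a collagen-binding matrix protein, in the average (log2 fold change 4.28 ± 0.75, adjusted p = 0.0287). Of the most abundant partners per kb, Thbs1 rose in the average, and Tgfbi was called in no efferocytosis contrast and fell with LPS/IFNγ.

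Some genes of the partner and fibroblast lists rose with LPS/IFNγ in naïve Mϕ, where no fibroblasts were added. Of the fibroblast list of 30, including the 4 genes set apart, 21 were tested, and 4 rose and 0 fell in LPS vs Ctrl. Among the 14 tested partners, 3 rose and 1 fell, beside 12.4% and 11.6% of all tested genes. Agrn, a basement membrane proteoglycan, went from 97.1 and 123 in Ctrl to 1235 and 1304 in LPS, with 171 and 111 in Eff and 1238 and 1359 in LPSEff (log2 fold change 3.52 ± 0.24 in naïve Mϕ, adjusted p = 7.23e-05). Pdgfrb, on the fibroblast list, went from 15.2 and 11.6 to 246 and 245 in naïve Mϕ (4.11 ± 0.42, adjusted p = 0.0004), above the 82.3 and 157 of LPSEff. Fbn1, on both lists, went from 15.2 and 8.10 to 141 and 146, and Cav1 from 103 and 125 to 1803 and 1699. Cdh11, also on the fibroblast list, went from 11.4 and 12.7 to 80.2 and 35.5 (2.06 ± 0.44, adjusted p = 0.0121). These 4 markers were therefore also read in Mϕ without fibroblasts. Markers of endothelial cells were summed at 781 and 952 normalized counts in Ctrl, 1560 and 3659 in LPS, 1542 and 1186 in Eff, with 2432 and 2828 in LPSEff, so that both Eff samples were above both Ctrl samples. They were led by Kdr and Pecam1, with Cldn5 at no more than 3.88. Of the 5 tested, 0 were called in an efferocytosis contrast, and 1, Kdr, rose in LPS vs Ctrl (log2 fold change 2.15). Markers of bone marrow stroma, led by Kitl and Nes, summed to between 87.3 and 213 in all samples, with Bglap at 0 in all naïve samples and 0 of 3 tested called in any contrast. The part of these cell types in the values of the family was not tested.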

How the data were processed

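Before alignment, ribosomal RNA reads (Bowtie2) and adapters (cutadapt) were taken out. The authors then counted reads per gene with HTSeq from STAR alignments to mm39 (versions not given in the sources used here). They deposited normalized counts, a signal per gene in which the reads of each sample are divided by 1 size factor, and name DESeq2 as their tool. All values (100% in every sample) were whole multiples of the worth of 1 read to within 0.01 reads, so that reads could be recovered. The collagen and laminin genes, gene lists and tests were chosen with earlier results of these data known. Genes with a mean of at least 10 (16309) were fitted with limma 3.58.1 (R 4.3.3, trend) on log2(normalized count + 1) with 4 group means, 4 residual degrees of freedom and Benjamini-Hochberg adjustment. Genes with an adjusted p under 0.05 were called. Fold changes are on this scale, where those of low genes depend on the pseudocount (Col6a3 in Eff vs Ctrl 8.03, 6.61 with a pseudocount of 5, 7.16 by DESeq2). Samples scaled to equal totals, other pseudocounts and filters, a replicate block, edgeR 4.0.16 and DESeq2 1.42.0 on recovered reads, and leaving out each sample were alternatives. Reads shared by overlapping exons on the same strand are left out by the default of HTSeq. Named were every called or detected member and, of each list, up to 4 called genes per efferocytosis contrast with the largest fold change and the 2 most abundant per kb. Of the annotation, 54749 of 55359 identifiers were found in GENCODE. The stretch between Col4a1 and Col4a2 and protein sequences are not shown.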

Additional observations from a re-analysis of the deposited data

How the results depend on the processing

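Without 1 sample, the genes called numbered 0 to 8 in Eff vs Ctrl (7 with all samples), 0 to 10 in LPSEff vs LPS (10), 9 to 14 in the efferocytosis average (13), 3 to 8 in LPS vs Ctrl (6) and 1 to 4 in LPSEff vs Eff (3), and the members detected without fibroblasts numbered 25 to 38 (25). Detection fell to 10 with at least 10 reads and to 11 with at least 10 normalized counts in each naïve sample. In Eff vs Ctrl, 11 genes were called with all genes of a mean above 0, 13 by DESeq2, 5 by edgeR (without Col1a2 and Col3a1) and 3 in a fit of the compared groups alone. In LPS vs Ctrl, 3 were called with equal totals and 2 with the compared groups alone, and in LPSEff vs Eff, 7 by DESeq2 and 5 with the compared groups alone. The labels give same-numbered samples of different groups only a shared number, and do not say whether they share a preparation. Deviations of same-numbered samples correlated with r from 0.404 to 0.595 over 16309 genes, and with a replicate block (3 residual degrees of freedom) 14, 16, 19, 15 and 9 members were called in the order above, and 436, 1137, 1845, 6717 and 6033 of all genes, compared with 41, 126, 313, 3910 and 3213 without it. The block called Lamc1 (adjusted p = 0.0139), Col5a1 (0.0256), Col18a1 (0.0380) and Lamb2 (0.0206) in the efferocytosis average and Col4a1 (0.0156) in LPS vs Ctrl. edgeR called 14, 126, 311, 3991 and 3509 genes and DESeq2 204, 368, 644, 3954 and 3519. For the LPS/IFNγ effect in efferocytic against naïve Mϕ, 0 members were called under every alternative. For single genes called, 311 of the values under other alternatives and 225 of those without 1 sample kept their direction and side of the threshold, and 22 and 87 kept the direction only, with 0 reversed. The causes of these shifts were not tested. Depth limits the low genes, since 3 reads are worth from 1.73 to 5.71 normalized counts.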
